A study of Mus musculus with 9 samples.

Results

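Small leucine-rich proteoglycans are secreted matrix proteins whose core is a row of leucine-rich repeats. The genes described here are 10 of that family: Dcn, Bgn, Aspn, Lum, Fmod, Prelp, Kera, Omd, Ogn and Podn. They were chosen by gene symbol, and their values come from 13 probe sets that each name 1 of these genes and no other. They are 10 of the 22180 genes with values in the series, 7 of them with 1 probe set and 3 of them, Bgn, Fmod and Prelp, with 2, which were averaged.

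The cells are MSC2, a clone of mesenchymal stromal cells grown from the bone marrow of C57BL/6 mice that were 6 weeks old, so every group stands for 1 clone. Each of 3 groups has 3 arrays, which the series text calls independent. The first group was undifferentiated MSC2, kept in alpha-MEM without ascorbic acid. The others were confluent MSC2 after 14 and 28 days in osteoblastic induction medium, which is DMEM with 0.1 µM dexamethasone (a glucocorticoid), 0.2 mM ascorbate phosphate (which collagen hydroxylation needs), 10 mM beta-glycerophosphate (a phosphate source) and 1 mM pyruvate. All media held 10% serum. Uninduced cells of matching age were not analysed here, so the effects of induction, of medium, of confluence and of time in culture cannot be told apart. Each value is a log2 signal minus the median of its probe set over the 9 arrays, so a value compares arrays for 1 gene and says nothing of which gene is more abundant. In bulk RNA, a change in how many cells express a gene and a change in RNA per cell cannot be told apart.

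The family is known for binding collagen fibrils, whose thickness and spacing it sets, and for holding growth factors such as transforming growth factor beta in the matrix. Decorin (Dcn), biglycan (Bgn) and asporin (Aspn) form class I, and decorin and biglycan carry chondroitin or dermatan sulfate chains. Lumican (Lum), fibromodulin (Fmod), PRELP (Prelp), keratocan (Kera) and osteomodulin (Omd) form class II, several of which carry keratan sulfate and sulfated tyrosines. Osteoglycin (Ogn, also called mimecan) belongs to class III and podocan (Podn) to class V. In bone, decorin, biglycan and osteomodulin are known parts of the matrix that osteoblasts lay down, and mice without biglycan have low bone mass.

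The upstream sequences of 5 members are shown because they set side by side the 3 neighbours of chromosome 13 that rose (Aspn, Omd and Ogn) and a pair of members that passed no comparison between groups (Kera and Bgn). They are the 250 bases before the annotated start in RefSeq on build GRCm38.p6, all on the plus strand. They lie at chr13:49544193-49544442 for Aspn, chr13:49582212-49582461 for Omd, chr13:49607765-49608014 for Ogn, chr10:97606955-97607204 for Kera and chrX:73483351-73483600 for Bgn. Capitals mark matches, on either strand and at any position, to TATAAA (the letters of the TATA box) and to TGTTCT (those of the half-site of the glucocorticoid receptor).
Aspn: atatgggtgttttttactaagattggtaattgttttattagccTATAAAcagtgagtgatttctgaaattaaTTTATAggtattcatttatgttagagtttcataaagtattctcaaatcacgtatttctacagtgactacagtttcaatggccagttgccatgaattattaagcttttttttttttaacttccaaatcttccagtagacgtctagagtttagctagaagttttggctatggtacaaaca
Omd: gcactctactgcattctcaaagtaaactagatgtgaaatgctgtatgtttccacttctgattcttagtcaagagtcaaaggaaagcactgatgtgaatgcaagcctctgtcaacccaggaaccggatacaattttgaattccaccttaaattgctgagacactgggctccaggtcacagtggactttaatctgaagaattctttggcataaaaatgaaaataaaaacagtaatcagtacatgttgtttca
Ogn: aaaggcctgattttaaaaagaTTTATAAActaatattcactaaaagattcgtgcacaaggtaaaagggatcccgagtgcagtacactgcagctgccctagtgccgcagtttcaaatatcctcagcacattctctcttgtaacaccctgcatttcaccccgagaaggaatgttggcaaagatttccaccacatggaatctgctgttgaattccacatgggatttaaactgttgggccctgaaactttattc
Kera: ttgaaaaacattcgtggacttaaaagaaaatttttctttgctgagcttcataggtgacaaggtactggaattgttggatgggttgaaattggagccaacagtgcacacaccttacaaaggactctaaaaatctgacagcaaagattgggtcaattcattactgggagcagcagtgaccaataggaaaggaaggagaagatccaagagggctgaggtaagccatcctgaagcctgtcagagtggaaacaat
Bgn: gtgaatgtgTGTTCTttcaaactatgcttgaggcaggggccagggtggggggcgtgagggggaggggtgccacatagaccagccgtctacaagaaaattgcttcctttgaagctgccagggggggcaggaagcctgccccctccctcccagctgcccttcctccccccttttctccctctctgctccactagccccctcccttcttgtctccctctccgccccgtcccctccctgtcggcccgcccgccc

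RefSeq's promoter table held 8 of the 10 members (all but Lum and Dcn), with 9 windows in all. TATAAA was in 2 of the 9 windows, those of Aspn and Ogn, against 12.4% of all 32851 windows of that length. In positions counted from the start, the 2 matches in Ogn begin at -229 and -227 and overlap on opposite strands, and the 2 in Aspn begin at -207 and -178, also on opposite strands. TGTTCT was in 1 window, that of Bgn at -241, against 16.1% of all windows, and TGANTCA, the site of the AP-1 factors, was in 0 of the 9, against 6.75%. The window of Aspn was 30.0% G and C, that of Omd 38.4%, Ogn 42.0% and Kera 42.4%, all below the lower quartile of 45.2% over all windows. The window of Bgn, at 64.4%, was above the upper quartile of 61.2%, as were both windows of Podn (64.0% and 78.0%), and those of Fmod (51.2%) and Prelp (55.6%) lay between the quartiles. These are matches of letters and were not tested against the values.

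Induced cells held more RNA of 5 of these genes at 14 days and of 7 at 28 days. At 14 days 5 of the 10 members were higher than in undifferentiated cells at an adjusted p under 0.05 (limma, Benjamini-Hochberg over all 22180 genes), namely Aspn, Lum, Omd, Ogn and Dcn, and Prelp was lower. At 28 days 7 were higher (the same 5 with Podn and Fmod) and 0 lower (0 also at an unadjusted p under 0.05 and after quantile normalization again). The background is high: of all genes, limma called 35.7% at 14 days (18.2% up and 17.5% down) and 39.9% at 28 days (20.4% up and 19.5% down). The median log2 fold change of the members was 0.53 at 14 days and 0.86 at 28 days, against medians of 0.0048 and 0.017 over all genes. The arrays of the groups did not overlap for 6 members at 14 days and 8 at 28 days, against 44.8% and 46.6% of all genes. Both comparisons use the same undifferentiated arrays. An F test among the 3 groups called 9 members, all but Kera, against 39.2% of all genes.

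**Figure D1:**
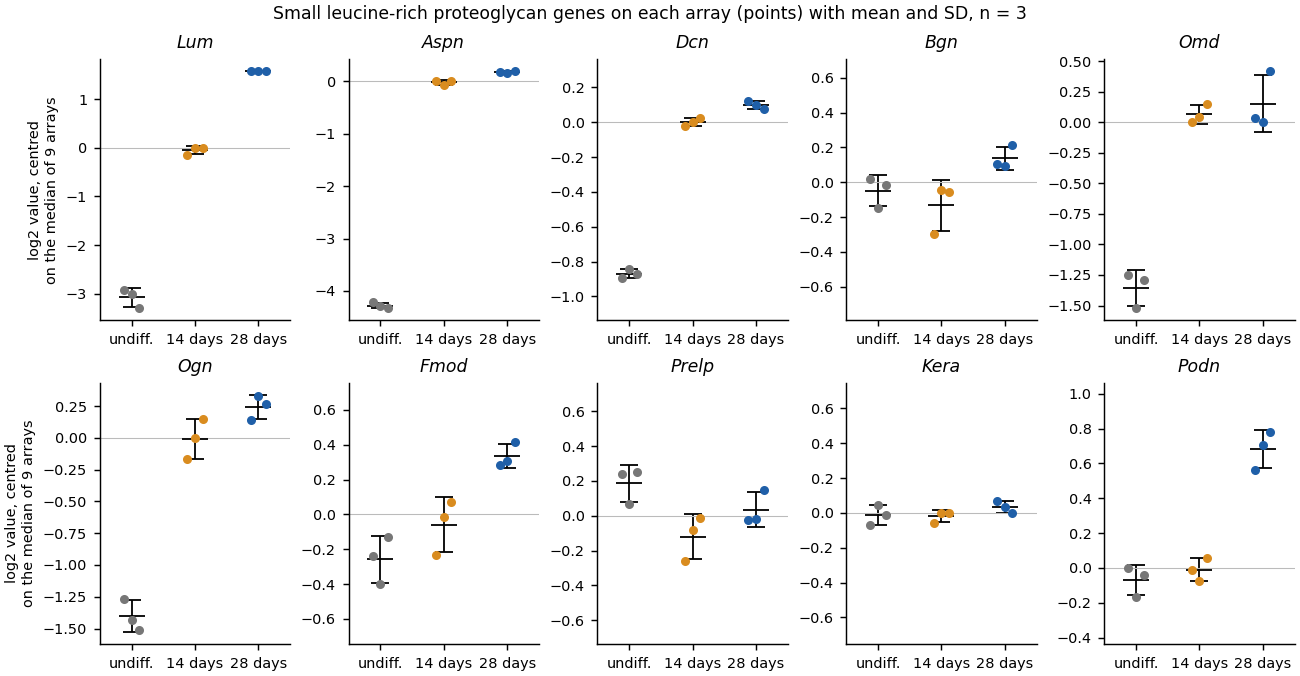
Values of the 10 genes on each of the 9 arrays, in log2 units centred on each probe set's median; points are arrays, and bars show the mean and SD of 3 arrays. The vertical scale differs between genes and spans at least 1.5 log2 units. Undifferentiated arrays lie at -4.33 to -4.22 for Aspn and at -3.30 to -2.93 for Lum, while the 9 arrays of Kera lie within -0.07 and 0.07.

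**Figure D2:**
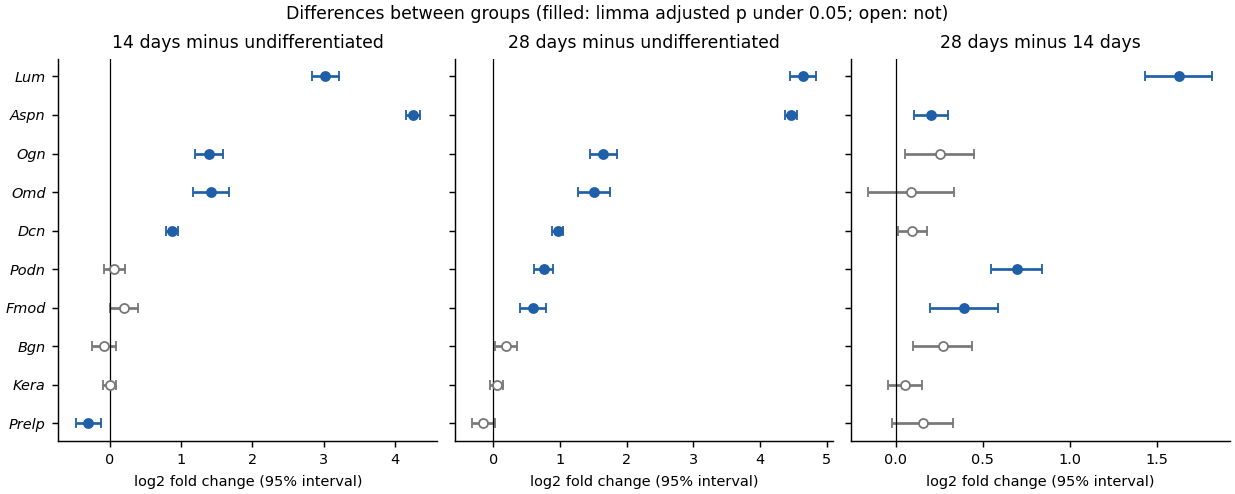
Log2 fold changes with 95% intervals from limma for the 10 genes in the 3 comparisons, the first-named group minus the second. Filled points have an adjusted p under 0.05; 6 are filled at 14 days, 7 at 28 days and 4 between 28 and 14 days, and Aspn and Lum lie apart from the rest in both comparisons with undifferentiated cells.

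In class I, Aspn rose most and Bgn was not called. Asporin, named for a run of aspartate residues, binds collagen and calcium and restrains transforming growth factor beta. Its probe set (17287160, chromosome 13) read -4.22, -4.29 and -4.33 in undifferentiated cells, 0, -0.07 and 0.01 after 14 days, and 0.18, 0.17 and 0.19 after 28 days. Every induced array stood at least 4 log2 units above every undifferentiated one, and the 14-day and 28-day arrays did not overlap either. Aspn was 19.2-fold higher at 14 days than in undifferentiated cells (log2 4.26, SE 0.04, limma adjusted p = 5.24e-12), the 7th largest rise of all genes. At 28 days it was 22.0-fold higher (log2 4.46, SE 0.04, limma adjusted p = 5.38e-12), in 10th place.

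Decorin binds type I collagen and is a long-known ligand of transforming growth factor beta. Dcn (probe set 17236800, chromosome 10) read -0.89, -0.84 and -0.87 in undifferentiated cells, -0.02, 0 and 0.02 after 14 days, and 0.12, 0.10 and 0.08 after 28 days. No array of one group reached into another. The rise was 1.83-fold at 14 days (log2 0.87, SE 0.04, limma adjusted p = 2.71e-08) and 1.95-fold at 28 days (log2 0.97, SE 0.04, limma adjusted p = 8.96e-09). Biglycan, which binds collagen and bone morphogenetic proteins, is closely related to decorin. Bgn (chromosome X) read 0.02, -0.15 and -0.02 in undifferentiated cells, -0.30, -0.05 and -0.05 after 14 days, and 0.10, 0.09 and 0.21 after 28 days. Its 28-day arrays lay above all others, by little, and its 14-day and undifferentiated arrays overlapped. The log2 fold change was -0.08 at 14 days (95% interval -0.25 to 0.08, limma adjusted p = 0.472) and 0.19 at 28 days (0.02 to 0.36, limma adjusted p = 0.0788). The F test passed for Bgn (limma adjusted p = 0.0387). The F call was lost after quantile normalization again (0.0815), without the third undifferentiated array (0.0578) and without 28-day replicate 1, 2 or 3 (0.0742, 0.0699 and 0.139), and the 28-day comparison passed without the first 14-day array (0.0276).

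In class II the members parted: Lum and Omd rose at both times, Fmod rose by 28 days, Prelp fell at 14 days and Kera was called nowhere. Lumican orders collagen fibrils and is best known from the cornea, whose clarity needs it. Lum (probe set 17236811, chromosome 10) read -2.93, -2.995 and -3.30 in undifferentiated cells, -0.15, 0 and 0.0018 after 14 days, and 1.57, 1.57 and 1.58 after 28 days. The 3 groups lay more than 1 log2 unit apart, and its 28-day arrays differed less from each other than the 28-day arrays of any other member. Lum was 8.15-fold higher at 14 days than in undifferentiated cells (log2 3.03, SE 0.09, limma adjusted p = 1.60e-09), the 40th largest rise, and 25.1-fold higher at 28 days (log2 4.65, SE 0.09, limma adjusted p = 5.77e-11), the 8th largest.

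Osteomodulin, also called osteoadherin, is an acidic protein of mineralized tissue that binds hydroxyapatite and bone cells. Omd (probe set 17287170, chromosome 13) read -1.25, -1.52 and -1.29 in undifferentiated cells, -0.00056, 0.04 and 0.15 after 14 days, and 0.03, 0 and 0.42 after 28 days. Induced arrays all lay above undifferentiated ones, and those of the 2 induced times overlapped. Omd was 2.68-fold higher at 14 days (log2 1.42, SE 0.11, limma adjusted p = 2.36e-06) and 2.84-fold higher at 28 days (log2 1.51, SE 0.11, limma adjusted p = 1.22e-06). Fibromodulin binds type I collagen beside lumican and is abundant in tendon. Fmod (chromosome 1) read -0.24, -0.40 and -0.13 in undifferentiated cells, -0.23, -0.02 and 0.07 after 14 days, and 0.29, 0.30 and 0.41 after 28 days. Only the 28-day arrays stood clear of the others. At 14 days the log2 fold change of 0.20 did not pass (95% interval 0.0037 to 0.39, limma adjusted p = 0.113), and at 28 days Fmod was 1.51-fold higher (log2 0.59, SE 0.09, limma adjusted p = 0.000262). Without the first 14-day array the 14-day value was 0.29 and passed (limma adjusted p = 0.0227).

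PRELP, with a basic N-terminal end that binds heparin, anchors basement membranes to the tissue beneath. Prelp (chromosome 1) read 0.24, 0.07 and 0.25 in undifferentiated cells, -0.26, -0.08 and -0.02 after 14 days, and -0.03, -0.02 and 0.15 after 28 days. Its 14-day arrays all lay below the undifferentiated ones, while the 28-day arrays overlapped both. The log2 fold change was -0.30 at 14 days (SE 0.08, limma adjusted p = 0.0111), where 17.5% of all genes fell, and -0.15 at 28 days (95% interval -0.33 to 0.03, limma adjusted p = 0.171). After quantile normalization again the 14-day value was -0.34 with a limma adjusted p of 0.0543, and the F call (0.0291) was lost as well (0.0970). It was also lost without undifferentiated replicate 1 or 3 (0.0942 and 0.0971) and without 14-day replicate 1 or 2 (0.0832 and 0.0574). Keratocan is the keratan sulfate proteoglycan of the cornea. Kera (probe set 17236816, chromosome 10) read -0.07, 0.04 and -0.01 in undifferentiated cells, -0.06, 0 and 0 after 14 days, and 0.07, 0.04 and 0 after 28 days. All 3 groups overlapped, and the 95% intervals ran from -0.10 to 0.09 at 14 days and from -0.05 to 0.15 at 28 days. Without a level, the values do not tell whether Kera RNA was present in any group.

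The 2 members outside these classes were both higher at 28 days, and Ogn already at 14 days. Osteoglycin was first isolated from bone and binds collagen. Ogn (probe set 17287175, chromosome 13) read -1.26, -1.43 and -1.51 in undifferentiated cells, -0.17, 0 and 0.15 after 14 days, and 0.14, 0.33 and 0.26 after 28 days. Induced arrays all lay above undifferentiated ones by over 1 log2 unit. Ogn was 2.63-fold higher at 14 days (log2 1.40, SE 0.09, limma adjusted p = 5.31e-07) and 3.13-fold higher at 28 days (log2 1.65, SE 0.09, limma adjusted p = 1.15e-07). Podocan, found in kidney podocytes and vessel walls, binds type I collagen. Podn (probe set 17427970, chromosome 4) read 0, -0.17 and -0.04 in undifferentiated cells, -0.01, -0.07 and 0.06 after 14 days, and 0.56, 0.71 and 0.78 after 28 days. Undifferentiated and 14-day arrays overlapped and the 28-day arrays lay above both. Podn stood at 0.06 at 14 days (95% interval -0.09 to 0.21, limma adjusted p = 0.581) and was 1.68-fold higher at 28 days (log2 0.75, SE 0.07, limma adjusted p = 5.09e-06).

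The size of the largest rises depended on the scaling. When the deposited values were quantile-normalized again, which forces the same spread on all 9 arrays, the SD of the log2 fold changes of all genes at 28 days was 0.39 in place of 0.54. The rises at 28 days were then 2.28 for Aspn, 3.43 for Lum, 1.06 for Ogn, 0.90 for Omd and 0.58 for Dcn on the log2 scale, and 1.07 for Podn. At 14 days they were 2.03 for Aspn, 1.44 for Lum, 0.84 for Omd, 0.74 for Ogn and 0.48 for Dcn. All of these kept an adjusted p under 0.05 and none of the called members changed sign. Between 28 and 14 days the SD over all genes was 0.23 in place of 0.15, and Podn stood at 1.04, Fmod at 0.60, Lum at 1.99 and Aspn at 0.25, all of them still called. The repeated normalization acted on values already centred per probe set, where it can also alter differences between groups that do not come from scaling. Which scaling lies nearer to the RNA levels was not tested.

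The comparison of 28 with 14 days asks what the second fortnight of induction changed. Its differences of means use no undifferentiated array. Its standard errors and p-values do, because the fit shares 1 estimate of the spread over all 9 arrays. Of the 10 members 4 were higher at 28 days than at 14 days (Lum, Podn, Fmod and Aspn) and 0 lower. Of all genes, limma called 7.39% (2.72% up and 4.67% down). At an unadjusted limma p under 0.05, 7 members passed and 0 were lower. After quantile normalization again the same 4 were called and 0 were lower. The median of the members was 0.23, against 0.0018 over all genes, and the arrays did not overlap for 6 members, against 24.4% of all genes. Lum was 3.08-fold higher at 28 days than at 14 days (log2 1.62, SE 0.09, limma adjusted p = 6.89e-06), the largest rise of the 22180 genes in that comparison. Podn was 1.62-fold higher (log2 0.69, SE 0.07, limma adjusted p = 0.000167), Fmod 1.31-fold (log2 0.39, SE 0.09, limma adjusted p = 0.0236) and Aspn 1.15-fold (log2 0.20, SE 0.04, limma adjusted p = 0.0190). Lum thus rose both before and after day 14, while Podn was called only in the comparisons that hold 28-day arrays.

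Of the members not called between 28 and 14 days, Bgn stood at 0.27 (95% interval 0.10 to 0.44, limma adjusted p = 0.0624), Ogn at 0.25 (0.05 to 0.45, limma adjusted p = 0.136) and Dcn at 0.10 (0.01 to 0.18, limma adjusted p = 0.177). Prelp stood at 0.15 (-0.02 to 0.33), Omd at 0.09 (-0.16 to 0.33) and Kera at 0.05 (-0.04 to 0.15). The calls of Fmod and Aspn did not last when some single arrays were left out, although the differences stayed between 0.31 and 0.46 for Fmod and between 0.18 and 0.22 for Aspn. Without the first 14-day array the limma adjusted p was 0.0778 for Fmod and 0.0504 for Aspn, without the second 14-day array 0.0610 and 0.0818, and without the third 28-day array 0.0820 and 0.0556, and the count of members called was 2 in each of these cases. Without the second 28-day array it was 3, with Fmod at 0.0601.

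Of the genes with 2 probe sets, those of Prelp moved alike and those of Fmod and Bgn did not. At 14 days against undifferentiated cells the Prelp probe sets stood at -0.33 (17217369) and -0.28 (17227077), with limma adjusted p-values of 0.0240 and 0.0134 over all probe sets. One Fmod probe set (17217373) read -0.35, -0.42 and -0.26 in undifferentiated cells, 0, 0 and 0.07 after 14 days, and 0.15, 0.18 and 0.25 after 28 days. It had risen by 0.37 at 14 days (SE 0.05, limma adjusted p = 0.000402). The other (17227083) read -0.13, -0.38 and 0, then -0.46, -0.03 and 0.07, then 0.42, 0.43 and 0.57. It stood at 0.03 at 14 days (SE 0.14, limma adjusted p = 0.916) and its rise came between 14 and 28 days (0.62, SE 0.14, limma adjusted p = 0.0374), where the first stood at 0.17 (SE 0.05, limma adjusted p = 0.114). Both were higher at 28 days than in undifferentiated cells, by 0.54 and 0.65, so the time of the Fmod rise is uncertain. For Bgn, probe set 17535558 moved by no more than 0.08 in any comparison, and 17542364 stood at -0.19 at 14 days, 0.29 at 28 days and 0.48 between 28 and 14 days (SE 0.13, limma adjusted p = 0.0680). The first 14-day array read -0.53 in that probe set, against -0.11 on each of the others of its group. That array was also the lowest 14-day array for the other Bgn probe set, both probe sets of Prelp and the noisier Fmod probe set. The same held for Lum, Dcn, Omd, Ogn and Kera, and not for Aspn or Podn. Some of these gaps were small: for Dcn that array read -0.02, against 0 and 0.02 on the others of its group. How often it was the lowest over all genes was not counted, and 3 arrays are too few to call any of them deviating.

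**Figure D3:**
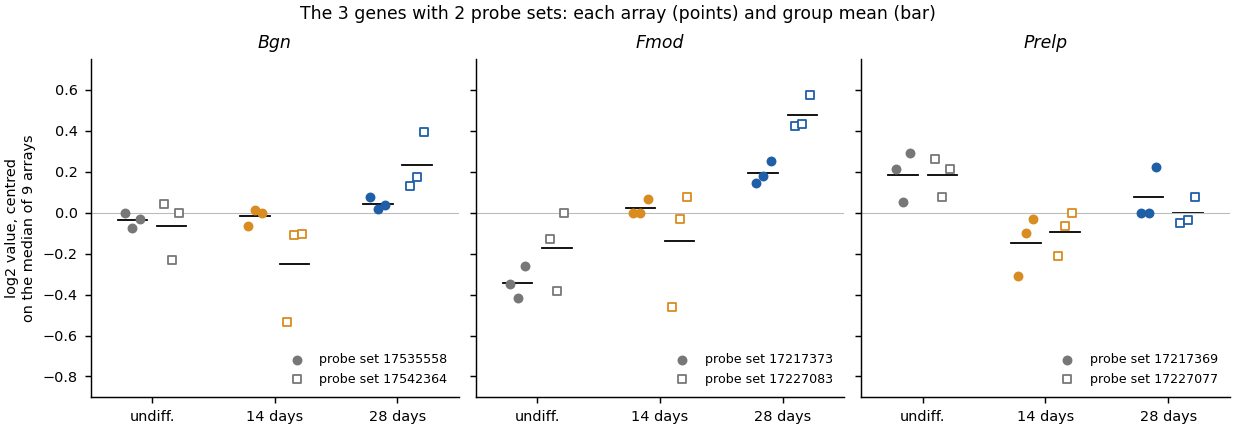
Values of the 2 probe sets of Bgn, Fmod and Prelp on each array, in log2 units centred per probe set; filled circles and open squares are the probe sets and bars are means of 3 arrays. One Fmod probe set stands above undifferentiated arrays at 14 days (0.37) and the other does not (0.03), and the first 14-day array lies at -0.53 in one Bgn probe set.

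Most members sit in 3 chromosome groups, in the order that the RefSeq annotation of GRCm38.p6 gives, and the groups differed. On chromosome 13 lie Ecm2, Aspn, Omd and Ogn, where Ecm2, a leucine-rich matrix protein of adipose and female reproductive tissue, is a relative outside the 10. All 4 rose at both times, Ecm2 by 0.95 at 14 days (SE 0.09, limma adjusted p = 8.62e-06) and by 1.12 at 28 days (limma adjusted p = 1.87e-06). These 4 genes lie within the annotated span of Cenpp, a kinetochore gene, which went the other way with -0.92 and -1.10. Beyond it, Ippk stood at 0.14 and 0.12, Nol8 at -0.13 and -0.34 and Iars, a transfer RNA synthetase gene, at -0.84 and -0.96.

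On chromosome 10 lie Dcn, Lum, Kera and Epyc (epiphycan, of growth cartilage). Dcn and Lum were called and Kera and Epyc were not, with Epyc at -0.01 at 14 days and -0.06 at 28 days. The 5 other measured genes of that stretch, 4930556N09Rik, Mir3966, 4930473O22Rik, Gm10754 and Ccer1, stood between -0.12 and 0.09 at both times, and none passed. On chromosome 1, Optc (opticin, of the eye's vitreous body), Prelp and Fmod lie side by side and moved in different directions. Optc fell by 0.50 at 14 days and by 0.44 at 28 days, Prelp fell at 14 days and Fmod rose at 28 days. Next to Fmod, Gm19497 rose by 0.67 and 0.81, and Btg2, an antiproliferative gene, stood at 0.19 at 14 days and rose by 0.87 at 28 days. On the other side Atp2b4, a calcium pump gene, stood at -1.04 and -1.27 and Lax1 was not called. Beside Podn on chromosome 4, Slc1a7 stood at 0.02 at 28 days and Scp2 rose by 0.20, and beside Bgn on chromosome X, Haus7 stood at -1.15 and Atp2b3 at 0.06.

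**Figure D4:**
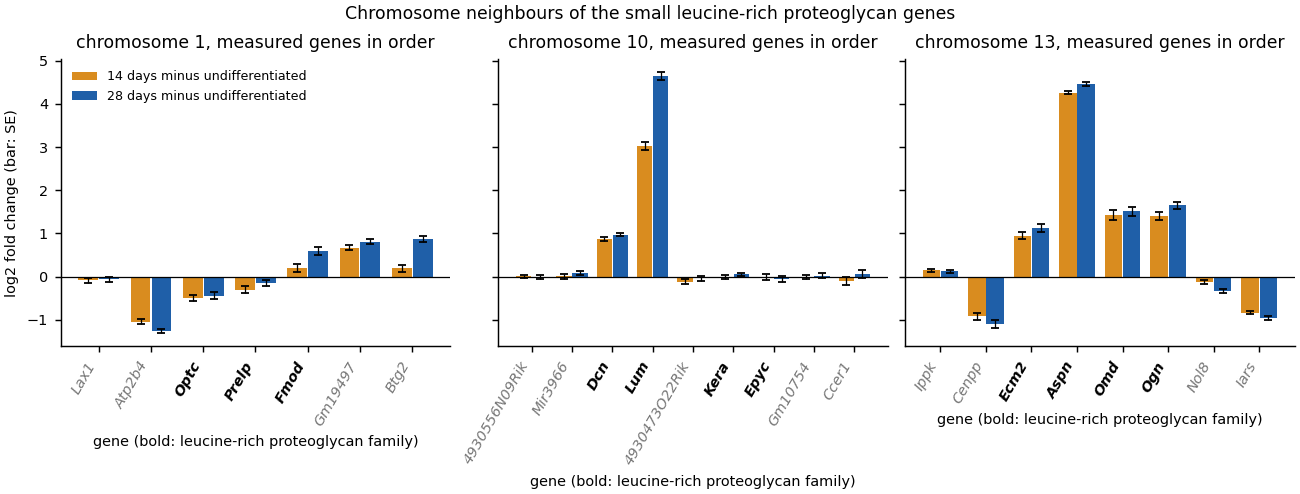
Log2 fold changes against undifferentiated cells at 14 days (orange) and 28 days (blue) with standard errors, for measured genes in chromosome order by start; family genes are in bold. The 4 family genes of chromosome 13 all rise while Cenpp and Iars fall, on chromosome 10 Lum and Dcn rise alone, and on chromosome 1 Optc and Fmod go opposite ways.

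Of 8 further family genes 7 were measured, and limma called 0 of them between 28 and 14 days (1 at an unadjusted p under 0.05, and 1 adjusted after quantile normalization again). Beside Ecm2, Nyx (nyctalopin, of the retina) rose by 1.52 at 14 days and 1.25 at 28 days, and Chad (chondroadherin, of cartilage) rose by 0.19 and 0.23, a call lost at both times after quantile normalization again (limma adjusted p = 0.193 and 0.104). Optc fell, and Epyc, Podnl1 and Chadl stood between -0.06 and 0.09 without a call. Against undifferentiated cells 4 of the 7 (57.1%) were thus called at each time, 3 up and 1 down, where 35.7% of all genes were called at 14 days and 39.9% at 28 days.

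The genes that the family works with were grouped by role, and their counts at 28 days against undifferentiated cells are read beside the 39.9% of all genes called and the median of 0.017. Of 11 fibrillar collagens, the main ligands, 1 rose and 4 fell, with a median of 0.05. Col5a1 stood at -0.51, Col1a1, which encodes a chain of the main collagen of bone, at -0.39, Col5a2 at -0.34 and Col27a1 at -0.28, and the rise was that of Col2a1 (0.16, named after its value was seen). After quantile normalization again 3 of the 11 were called, and Col2a1 (limma adjusted p = 0.138) and Col27a1 (0.117) were not. Of 11 fibril-associated and type VI collagens 4 rose and 1 fell. Col6a1, Col6a3 and Col6a2, the chains of the beaded filaments that decorin and biglycan bind, rose by 1.14, 1.11 and 0.68, and Col12a1 stood at -1.57. Between 28 and 14 days Col6a1 rose by a further 0.65 and Col6a2 by 0.43, while Col6a3 stood at -0.07.

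Enzymes that build the chains of the family moved both ways. Of 21 enzymes of the linker and of chondroitin and dermatan sulfate, 10 rose and 4 fell, with a median of 0.13. Chst11, a chondroitin 4-sulfotransferase, rose by 1.73 and Ust, a uronyl 2-sulfotransferase, by 0.85. Among the 4 that fell, Chst14, the dermatan 4-sulfotransferase, stood at -0.69, Chsy1, a chain polymerase, at -0.60, and the epimerases Dse and Dsel at -0.58 and -0.38 (the last 2 named after their values were seen). Of 11 keratan sulfate enzymes 6 rose and 1 fell, with a median of 0.21. The sialyltransferases St3gal1 and St3gal2 rose by 0.86 and 0.31 and the galactosyltransferase B4galt4 by 0.74, while Chst1, the keratan sulfate galactose 6-sulfotransferase, stood at -0.29, a call lost after quantile normalization again (limma adjusted p = 0.192). Of 8 genes for sulfate supply and tyrosine sulfation 2 rose and 2 fell. Papss2, a synthase of the sulfate donor that cartilage needs, stood at -1.16 and the tyrosine sulfotransferase Tpst2 at -0.16, and the transporters Slc35b2 and Slc26a2 rose by 0.32 and 0.23, where the call of Slc26a2 was lost after quantile normalization again (limma adjusted p = 0.0713).

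A list of 14 genes held proteases that cut these proteins or their collagen partners, and enhancers of procollagen cleavage. At 28 days 11 of the 14 changed, 8 up and 3 down. The metalloproteinases Mmp3 and Mmp13 rose by 2.38 and 1.80. Those that fell were the aggrecanase Adamts5 at -2.39 and the enhancers Pcolce2 at -1.04 and Pcolce at -0.28 (the last named after its value was seen). The Pcolce call was lost after quantile normalization again (limma adjusted p = 0.0574). Of 17 ligands and receptors 8 rose and 7 fell at 28 days, with a median of 0.06, and limma called 0 between 28 and 14 days (4 at an unadjusted p under 0.05, and 2 adjusted after quantile normalization again). Cd14 and Tlr4, through which soluble biglycan is known to signal, rose by 2.75 and 0.89, as did the purine receptor P2rx7 (0.95) and the endothelial growth factor receptor Kdr (1.91). Of 23 proteoglycans of other families 8 rose and 7 fell. Gpc3, a glypican, rose by 4.31 and Prg4, the joint lubricant lubricin, by 3.69, close to Lum and Aspn in size, whereas the hyaluronan receptor Cd44 stood at -2.59 and Gpc6 at -1.70. After quantile normalization again the values of Col6a3 (0.58), Col12a1 (-0.95), Chst11 (0.91), Ust (0.49), Cd14 (1.49), Tlr4 (0.48), P2rx7 (0.56), Kdr (0.99), Cd44 (-1.72) and Gpc6 (-0.93) were smaller by over 1.5 times and still called, as were those of Nyx (0.71) and Optc (-0.28).

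**Figure D5:**
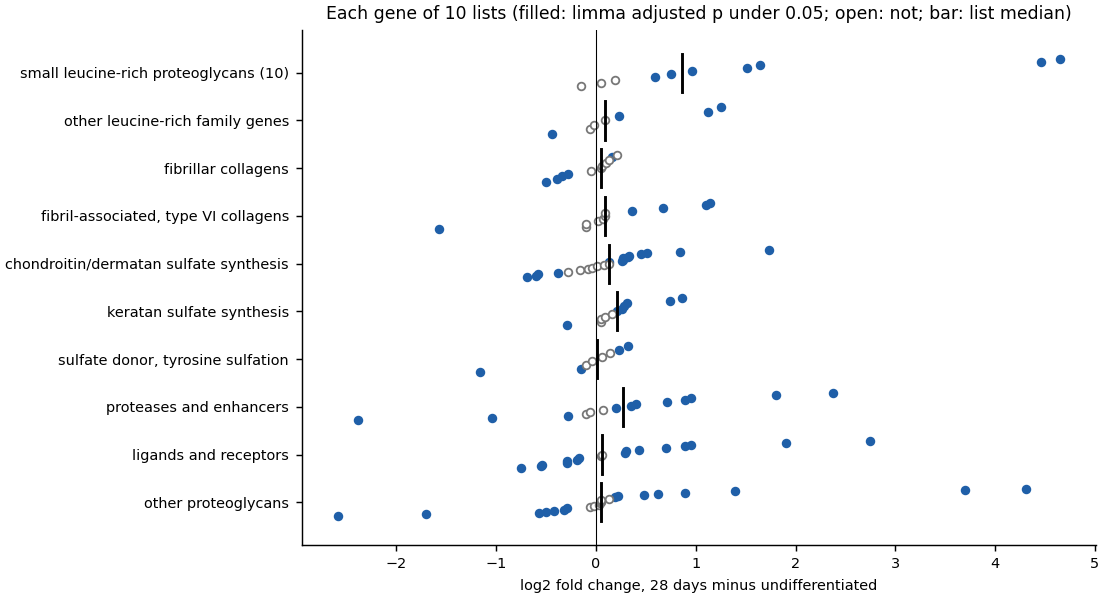
Log2 fold changes at 28 days against undifferentiated cells for each measured gene of 10 lists; filled points have a limma adjusted p under 0.05 and black bars are list medians. The median of the 10 small leucine-rich proteoglycans lies at 0.86, and those of the other lists lie between 0.0071 and 0.275.

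The genes with the 9 values nearest to each called member, by the root mean square of the differences on the log2 scale, were searched among all genes. Each such value rests on 9 arrays in 3 groups. Nearest to Lum was Thbs2 (thrombospondin 2, 0.171), followed by Gpc3 (0.297) and Prg4 (0.493). Nearest to Aspn were Hp (haptoglobin, 0.128), Ptgds (0.153) and Mmp8 (0.160). Nearest to Dcn were Rhobtb1 (0.0313), St3gal5 (0.0407) and 2210408F21Rik (0.0448). Omd was nearest to Selenbp1 (0.106), Rtn2 (0.111) and 6430548M08Rik (0.126), and Ogn to Tsc22d3 (0.0943), Abca2 (0.102) and Ccpg1os (0.109). For Podn they were Btg2 (0.0936), Ct55 (0.103) and Dbp (0.147). For Fmod they were Gpbar1 (0.0775), Mir187 (0.0813) and 1810037I17Rik (0.0847), and for Prelp Rps18 (0.0567), Akna (0.0575) and Pcid2 (0.0577). No member was among the 3 nearest of another.

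Markers of the cell types that make these proteoglycans were read beside the members. At 28 days 39.9% of all genes were called against undifferentiated cells. Of 10 osteoblast and osteocyte markers 3 rose and 1 fell (40.0% called): Pth1r, the parathyroid hormone receptor, by 1.03, Alpl by 0.46 and Mepe by 0.35, with Col1a1 at -0.39. Sp7 (0.02), Bglap (-0.18), Ibsp (0.03), Dmp1 (0.01), Sost (-0.14) and Phex (0.09) were not called. After quantile normalization again 2 of the 10 were called, and Alpl (limma adjusted p = 0.200) and Mepe (0.0603) were not. Of 8 tendon and fibroblast markers 3 rose (Pdgfra by 1.42, Egr1 by 0.51 and Scx by 0.45) and 2 fell, with Tnc at -1.82 and Mkx at -0.20 (the last named after its value was seen). The Scx call was lost after quantile normalization again (limma adjusted p = 0.0549). Tnmd (0.02), Thbs4 (0.0083) and Col14a1 (-0.10) of that list were not called. Of 12 cartilage markers 5 rose (41.7% called), with Sox9 at 0.80, Col10a1 at 0.77, Sox5 at 0.48 and Sox6 at 0.28. The remaining riser was Col2a1 (0.16, named after its value was seen), whose call was lost after quantile normalization again (limma adjusted p = 0.138). Acan (0.05), Comp (-0.01), Matn1 (-0.13), Matn3 (0.0029) and Hapln1 (0.02), which encode parts of cartilage matrix, were not called.

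Among markers of other cells at 28 days, 2 of 7 adipocyte genes rose (Fabp4 by 3.63 and Lpl by 0.71), 2 of 9 macrophage genes (Csf1r by 2.10 and Cd68 by 0.75) and 5 of 7 endothelial genes (Kdr by 1.91, Erg by 1.33, Emcn by 0.68, Pecam1 by 0.15 and Cdh5 by 0.14, the last named after its value was seen). After quantile normalization again the calls of Emcn, Pecam1 and Cdh5 were lost (limma adjusted p = 0.174, 0.241 and 0.108). Of the adipocyte list Pparg (-0.07) and Adipoq (0.04), of the macrophage list Ptprc (-0.0057) and Adgre1 (-0.13), and of the endothelial list Vwf (-0.0019) and Tek (0.05) were not called. Of 6 smooth muscle genes 2 rose (Myh11 by 0.54 and Des by 0.53) and 3 fell, among them Cnn1 at -2.38 and Acta2 at -0.39. After quantile normalization again Fabp4 (1.96), Csf1r (1.32), Erg (0.85), Pdgfra (0.85), Sox9 (0.48), Des (0.30) and Tnc (-0.93) were smaller by over 1.5 times and still called. The values are centred, so summed levels and markers at background cannot be given, and the part of other cell types in the members' changes was not tested.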

How the data were processed

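Total RNA of 9 cultures was hybridised to single-sample expression arrays, with a mean RNA integrity number of 9.9 according to the labels. The deposited log2 values were made with RMA, per the submitters' processing notes. Which software ran it, on which annotation build, and how the values were later centred is not stated in any source used here. Base 2 was assumed for the logarithm, as is usual for RMA, and higher values were assumed to mean more RNA. All 33794 probe sets are centred to a median of 0 (within 1e-06), so no absolute level is kept. Values run from -6.33 to 3.42, and 15.2% to 28.1% of an array's values are exactly 0. The number of arrays limits the precision.

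Probe sets were named through the supplied platform annotation: 23521 have 1 gene, 1814 several and 8459 none. Only the first kind was used, averaged per gene, for 22180 genes, of which 21098 rest on a single probe set. Gene order and promoter sequences came from RefSeq, GRCm38.p6. The comparisons used limma 3.58.1 (R 4.3.3) on all 9 arrays, with a mean for each group and eBayes moderation, which had 6 residual and 3.807 prior degrees of freedom. Adjusted p-values are Benjamini-Hochberg over all genes, and a gene was called under 0.05. Standard errors and 95% intervals come from that fit. Nothing says whether replicates came from separate thaws or days, so p-values measure only the spread between these samples. The steps were tested on simulated data.

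The 10 members and all gene lists were chosen with earlier results of these data known. Named are all members, up to 4 called genes of each list with the largest change at 28 days, the 3 genes nearest to each called member and the 2 nearest measured genes on each side of a chromosome group. Listed genes that were not called are named where a sentence says so, and called genes outside this rule are marked. The alternatives were quantile normalization again, robust moderation, a fit of only the groups compared, a replicate block, a fit on all probe sets, a test against a 1.5-fold change, only genes with 1 probe set, and leaving out each array. Tsku, Col21a1, Chpf2, Chst15, Bglap2 and Cfd were listed and not analysed here. Protein sequences were not used here.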

Additional observations from a re-analysis of the deposited data

Results flagged for a closer look

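For 4 members the effect against undifferentiated cells at 28 days differed from that at 14 days, by the direct limma comparison of the 28-day with the 14-day arrays. The difference was 1.62 on the log2 scale for Lum (limma adjusted p = 6.89e-06), which was 4.65 above undifferentiated cells at 28 days and 3.03 at 14 days. For Podn it was 0.69 (limma adjusted p = 0.000167), with 0.75 at 28 days and 0.06 at 14 days. For Fmod it was 0.39 (limma adjusted p = 0.0236), with 0.59 and 0.20, and its 2 probe sets placed it differently. For Aspn it was 0.20 (limma adjusted p = 0.0190), with 4.46 and 4.26. In each case all 3 arrays of 28 days lay above all 3 of 14 days. Groups of 3 arrays are too small for a search for single deviating arrays.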

How the results depend on the processing

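Over 608 values recomputed for single members, 575 kept their direction and their side of the threshold, 27 lost a call, 3 gained one and 3 changed sign. The sign changes were of values that no setting called: Kera at 14 days against undifferentiated cells stood at 0.024 without the second undifferentiated array and at 0.014 without the first 14-day array, in a range of -0.034 to 0.024 over the arrays left out, and Omd between 28 and 14 days stood at -0.047 without the third 28-day array, in a range of -0.047 to 0.16. The count of members called between 28 and 14 days, 4 in the main setting, was 1 (Lum) in the test against a 1.5-fold change. Leaving out 1 array at a time, the counts of members called ran from 6 to 7 at 14 days, from 7 to 8 at 28 days, from 2 to 4 between 28 and 14 days and from 7 to 9 in the F test. In the test against a 1.5-fold change Fmod and Podn lost their calls at 28 days (limma adjusted p of 0.154 for Podn), as did Prelp at 14 days and Aspn, Fmod and Podn between 28 and 14 days. That test called 1582, 2010 and 28 of all genes in the 3 comparisons, against 7920, 8845 and 1639. In the fit on all probe sets, which asks that both probe sets of a gene pass, Fmod lost its call between 28 and 14 days, as did Bgn (0.354) and Prelp (0.0545) in the F test. In a fit of only the groups compared, Bgn passed at 28 days (0.0474). Whether arrays of the same replicate number belong together is not stated. Correlations of the deviations of same-numbered arrays ran from -0.139 to 0.068 (median 0.018) over 9 pairs. Those of other arrays ran from -0.12 to 0.145 over 18. The ranges overlap and do not exclude a pairing. With a replicate block the counts of members called were 6, 7 and 4, and 9 in the F test, as without it, and 7846, 8726 and 1390 of all genes were called. No depth exists for arrays. Centred values give no signal over background, so a member below detection cannot be told from one that did not change.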
